A study of Mus musculus with 47 samples.

Results

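Npy, the gene of neuropeptide Y, and the genes of its receptors Npy1r, Npy2r and Npy5r were followed through single NPY-positive interneurons of mouse auditory cortex (AC) and hippocampal area CA3. These are 4 of the 22800 gene symbols in the table, chosen by name. The messenger of the peptide was read in each of the 23 cells compared, whereas those of its receptors were close to unread: Npy1r had 2 reads in 1 cell, and Npy2r and Npy5r had none. Npy was higher in AC than in CA3: summed reads differed 4.10-fold, and 1.67-fold without the 3 AC cells with most Npy, while the difference in mean log2 level was 1.63 and 0.81.

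The mice were of the NPY-hrGFP strain, in which a green fluorescent protein is made under control of the Npy gene, so a cell was picked for its fluorescence and not for its messenger. They were 3 to 8 weeks old, male and female, and the cytosol of a cell was drawn into the patch pipette after recording. GEO's design text calls the mice NPY-EGFP. The labels name 20 columns as NPY-positive cells of AC, 21 of CA3, 3 of CA1 and 2 of the dentate gyrus (DG), and 1 column as an NPY-negative cell of CA3. AC cells came from superficial layers in coronal slices and CA3 cells from stratum lacunosum-moleculare in horizontal slices, so slice plane and region cannot be told apart. Values are given first for 10 AC and 13 CA3 columns, which earlier work on this table had tied to plotted cells through the colours of heat maps, and then for the other columns. Not every CA3 cell plotted could be tied to a column, so the CA3 set lacks some of them. Because no mouse is named for any cell, each region stands as 1 sample, no test between regions was made, and SDs describe the spread over cells.

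Neuropeptide Y is cut from a precursor, stored in dense core vesicles and released from many GABAergic interneurons, neurogliaform cells among them. Its receptors couple to inhibitory G proteins of the Gi/o class, which lower cyclic AMP, open GIRK potassium channels and reduce current through presynaptic calcium channels. Npy2r is the receptor most often placed on the terminals of NPY neurons themselves, where it acts as an autoreceptor, while Npy1r and Npy5r are mostly described on the cells that receive the peptide. Receptor messenger inside the cell that makes the peptide is therefore the quantity of interest here.

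Npy lies on chromosome 6 of GRCm38 from 49822710 to 49829507 on the plus strand, with 566 exonic bases. Npy1r, on chromosome 8 from 66697192 to 66706792, and Npy5r, from 66679965 to 66688128, are read away from each other on opposite strands with 9063 bases between them, so no exon is shared. Npy2r is on chromosome 3 from 82538383 to 82548084. The receptor genes have 2555 to 3454 exonic bases. The window around the Npy start site is shown because this promoter both gave the messenger measured here and drove the fluorescence by which cells were chosen. It runs over chr6:49822460-49822759 of GRCm38.p6 on the plus strand and was taken from RefSeq, with a TATA-like box in capitals.
Npy promoter: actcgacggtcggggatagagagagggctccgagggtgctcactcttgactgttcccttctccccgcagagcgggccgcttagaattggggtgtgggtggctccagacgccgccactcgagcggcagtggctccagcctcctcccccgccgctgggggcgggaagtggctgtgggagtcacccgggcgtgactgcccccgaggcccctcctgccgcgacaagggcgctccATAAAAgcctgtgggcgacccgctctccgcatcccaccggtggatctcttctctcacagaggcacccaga
The letters ATAAAA begin 20 bases before the start site. Searched on both strands, they were present in 19.1% of 27025 mouse promoter windows of the same length and absent from those of Npy1r, Npy2r and Npy5r. The GC box GGGCGG was found in the windows of Npy and Npy2r and in 35.9% of all windows.

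Whether a column labelled NPY-positive held Npy reads was looked at first. Of the 46 such columns, 32 had Npy reads and 14 had none. The latter were 5 of AC (N9, N10, N49, N50 and N52), 7 of CA3 (N13, N14, N15, N17, N18, N22 and N23) and both of DG. These 14 were shallow, with 40934 to 595759 reads, against 1715012 to 7949918 in the 23 cells compared. The lowest level in a column with Npy reads was 249.9 CPM (reads per 1000000 reads on genes) in the CA3 cell N38, and at that level the 14 columns would have had 10.2 to 149 Npy reads each. In 13 of the 14 neither Gad1 nor Gad2, the enzymes that make GABA, had a read, and N9 had 2 reads on Gad1. Astrocyte or oligodendrocyte markers summed to more than 1000 CPM in 9 of them, up to 18345 CPM for astrocyte and 127303 CPM for oligodendrocyte markers. In these 14 columns the labels thus go against the messenger, and they entered none of the values below except those over all labelled cells, over the columns left by the study's filter or over all 47 columns. The NPY-negative cell N16 also had no Npy read among 291745, and no Gad1 or Gad2 read, with oligodendrocyte markers at 177000.5 CPM.

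**Figure D1:**
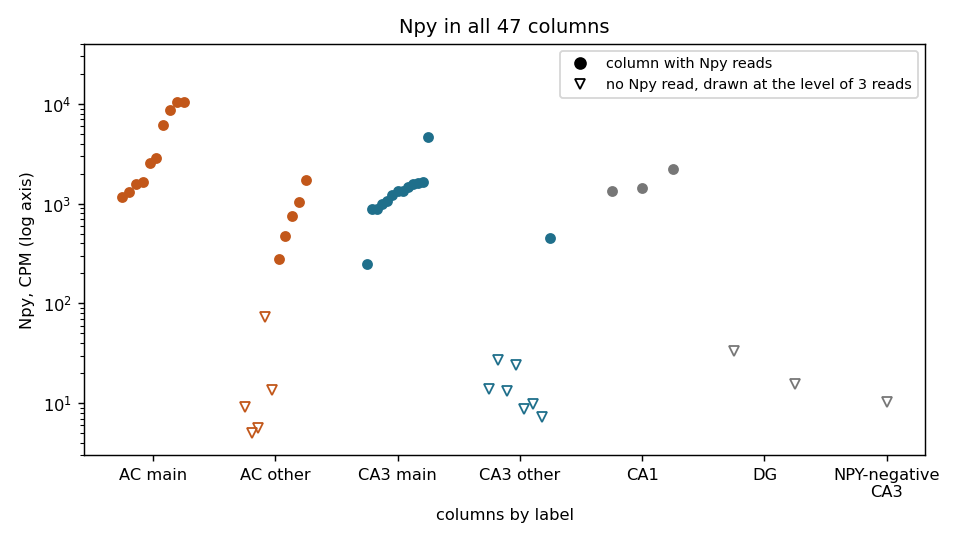
Npy level in CPM on a log axis for each of the 47 columns by label, where "main" marks the 10 AC and 13 CA3 cells compared. Filled points had Npy reads, and open triangles had none and sit at the level that 3 reads stand for in that column; all 23 main cells lie at 249.9 CPM or above, while 14 columns labelled NPY-positive and the NPY-negative cell hold no read.

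In AC, Npy stood at 10566 CPM in N8, 10443 in N41, 8751 in N42 and 6108 in N5. The next cells were N46 with 2872 CPM, N7 with 2573, N43 with 1641, N3X with 1573, N44 with 1297 and N4 with 1174. Thus 4 AC cells lay above every CA3 cell, and the other 6 overlapped with CA3. Among the 13 CA3 cells the lowest was N38 with 249.9 CPM, the median 1336 and the highest N28 with 4684. The CA3 cell next to N28, N34, had 1657 CPM, so N28 was the single CA3 cell above the AC median of 2722 CPM, and 8 of 10 AC cells lay above the CA3 median.

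The summed reads gave 5576 CPM in AC and 1359 CPM in CA3, a ratio of 4.10. The cells N8, N41 and N42 held 76.6% of the AC reads on Npy but 42.5% of all AC reads. Without these 3 cells, a set chosen after their values were seen, AC came to 2271 CPM and the ratio to 1.67. With the median cell of each region in place of the sum the ratio was 2.04. On the scale of log2(normalized count + 1) the mean level of AC was 13.68 ± 1.48 (SD, n = 10 cells) and that of CA3 12.05 ± 1.01 (SD, n = 13 cells). The difference of 1.63 exceeded either SD, and without N8, N41 and N42 the difference was 0.81. When every labelled column was taken, with the near-identical N4 and N4X counted once, Npy reads were present in 14 of 19 AC cells and 14 of 21 CA3 cells. The ratio of summed reads was then 2.89.

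The median over all genes differed between the regions too, in the opposite direction. For the 5964 genes read in 10 or more of the 23 cells, the difference AC minus CA3 had a median of -0.84, and Npy lay 2.47 above it. This median takes in cells without a read, which Npy did not have. AC cells had 3163 to 6288 detected genes and CA3 cells 3679 to 8149. The 13 CA3 cells can also meet the limit of 10 alone, while AC needs all its 10 cells. Of the other listed genes read in all 23 cells, Cpe differed by 0.05, Gad1 by 0.17, Gad2 by 0.34, Gnao1 by -0.18 and Gabbr1 by -0.94. The 2.47 is thus no measure of the Npy difference itself. A mean log2 level at least 1 higher in AC was found for 16.6% of the 5964 genes, and at least 1 higher in CA3 for 46.9%, together 63.5%. Npy thus belonged to the smaller of these groups.

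Npy reads were also set against Gad1 reads of the same cell, a ratio that needs no scaling between cells. It ran from 0.159 in N4 to 1.10 in N8 over 9 of the AC cells, with N7 apart at 3.48, and the AC median was 0.524. In CA3 it ran from 0.0398 in N38 to 0.546 in N26 over 12 cells, with N28 apart at 1.58, and the median was 0.200. N7 had few Gad1 reads, 1668, the lowest of all 23 cells, and N28 had the most Npy reads in CA3, 11113. In AC the cells with more Npy also tended to have more Gad1 (rank correlation 0.61 over 10 cells), while in CA3 the sign was the opposite, -0.36 over 13 cells. Total reads moved with Npy likewise, at 0.56 in AC and -0.36 in CA3, and their part was not tested. These are descriptions over cells that share a region and amplification steps.

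Markers of other cell types were compared beside Npy. Microglia markers, all 6 of which had reads, summed to 0 to 4365 CPM in AC cells and 0 to 2161 CPM in CA3 cells, with the highest value in N42. Their rank correlation with Npy was 0.40 over the 10 AC cells and 0.15 over the 13 CA3 cells. Astrocyte markers, of which 4 of 6 had reads, reached 1089 CPM in AC and 0.421 CPM in CA3, with Aqp4 and Gjb6 at 0. Pyramidal cell markers reached 137 CPM in AC and 204 CPM in CA3. Oligodendrocyte markers, with 4 of 6 read, reached 367 and 955 CPM, Mog and Cldn11 being at 0. Of the endothelial markers Pecam1 alone of 5 had reads, at most 1.17 CPM in an AC cell and 33.7 in a CA3 cell. The GABAergic markers, 4 of 4 in the table, summed to 2221 to 18082 CPM in AC and 3041 to 15664 CPM in CA3. The part of the other cell types in the Npy difference was not tested.

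By the rule of the 5 genes whose level followed Npy most closely over the 23 cells, after the mean of each region was subtracted, the genes were Rit2 (rank correlation 0.80), Stmn3 (0.78), Txnrd2 (0.72), Pebp1 (0.71) and Rps24 (0.71). Rit2 is a small neuronal GTPase, Stmn3 a stathmin that binds tubulin, Txnrd2 the mitochondrial thioredoxin reductase, Pebp1 a kinase inhibitor protein and Rps24 a ribosomal protein. For Pebp1 the correlation was 0.81 within AC and 0.85 within CA3, and for Rit2 it was 0.87 and 0.51. Among the 5963 genes compared the median correlation was -0.02 and the central 95% lay between -0.51 and 0.50. The mice behind the cells are not named, so cells may share a mouse, and the genes were taken as the extreme of this spread.

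Npy1r had 2 reads in the AC cell N7, or 0.888 CPM of that cell, and 0 reads in the other 22 cells. This was 1 of 10 AC cells (10%, exact Clopper-Pearson 95% interval 0.253 to 44.5%) and 0 of 13 CA3 cells, which by the limit of 3 counts, used here wherever a count was 0, allows a share of up to 23.1%. These bounds take cells as independent, which unnamed mice leave unknown, and they concern cells with a read, not cells that express the gene. In AC the summed level came to 0.0587 CPM, with an exact Poisson 95% interval of 0.00711 to 0.212, and 0 reads in CA3 allow up to 0.0614 CPM from 3 reads over the region. No regional difference in Npy1r was detectable at this depth.

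Npy2r had 0 reads in all 10 AC and all 13 CA3 cells. That allows up to 0.0881 CPM in AC and 0.0614 CPM in CA3, and a share of cells with a read of up to 30% and 23.1%. Npy5r had 0 reads in the same 23 cells, with the same limits, and none in any of the 47 columns. Per cell, 3 reads stood for 0.377 to 1.75 CPM. Limits and intervals do not cover differences between mice and, for reads, cover counting error alone, since reads come from amplified cDNA, and how many molecules of a cell reached the library is not known from the table.

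Per exonic length, Npy exceeded Npy2r at least 378318-fold in AC and at least 132278-fold in CA3. Against Npy5r the bounds were 285724-fold and 99902-fold. For Npy1r the ratio in AC was 579387 (160391 to 4784186, from the counting interval of 2 reads), and in CA3 it was at least 135054. The AC bounds rest on the cells with most Npy: without N8 they were 246427-fold for Npy2r and 186113-fold for Npy5r, and without N8, N41 and N42 they were 88598-fold and 66913-fold. The Npy1r ratio falls in the same proportion, since its 2 reads are in N7. Within single cells the bound for Npy2r ran from 1827-fold in N38, the cell with the least Npy, to 131891-fold in N8. All these bounds and the interval cover counting error alone, and not molecules that did not reach the library. No cell had reads on more than 1 of the 3 receptor genes.

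**Figure D2:**
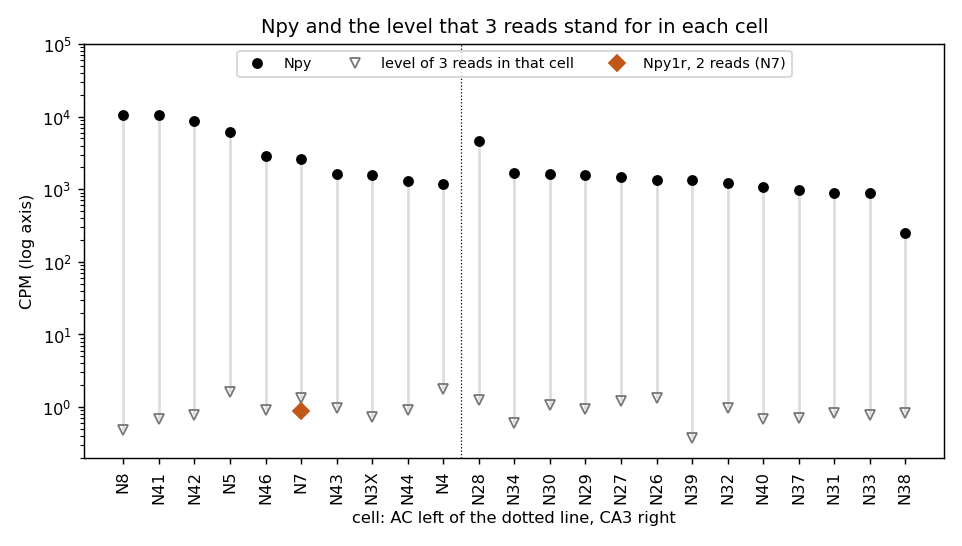
Npy level (filled points) and the level that 3 reads stand for (open triangles) in each of the 23 cells, in CPM on a log axis, with AC left and CA3 right of the dotted line. The diamond is Npy1r in N7 with 2 reads, the sole receptor value above 0; Npy runs from 249.9 to 10566 CPM and the 3-read level from 0.377 to 1.75 CPM.

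Being unread was common in these libraries: 9176 of 22800 gene symbols (40.2%) had no read in the 23 cells, and 7613 (33.4%) none in the 47 columns. Other genes of the Gi/o receptor class were listed for comparison, a list drawn up after the receptor counts were seen. Of its 25 genes, 18 had reads in the 23 cells, 7 in at least 5 cells, and 7 had none. Gabbr1, a subunit of the GABA-B receptor, was read in 23 of 23 cells at 115 CPM in AC and 179.6 CPM in CA3, and its partner Gabbr2 in 20. The cannabinoid receptor Cnr1 was read in 9 cells, the opioid receptor Oprd1 in 10, the somatostatin receptor Sstr2 in 7, the nociceptin receptor Oprl1 in 7 and the glutamate receptor Grm4 in 5. Drd2, Galr1, Oprk1, Sstr3, Grm8, Chrm2 and Adra2a shared with Npy2r and Npy5r the absence of any read in the 23 cells. The number of cells with reads thus ranged from every cell to none over the 25 listed genes, and Npy1r, which is not on the list, had 1.

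**Figure D3:**
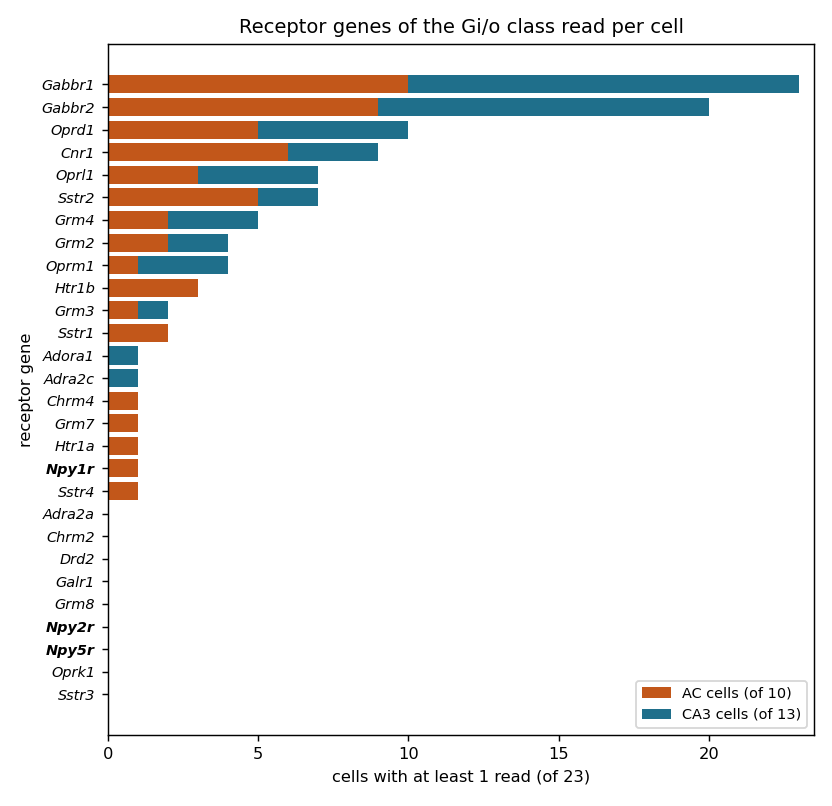
Number of cells with at least 1 read, of 10 AC and 13 CA3 cells stacked, for Npy1r, Npy2r and Npy5r (bold) and 25 other receptor genes of the Gi/o class. Gabbr1 reaches all 23 cells, Npy1r 1, and Npy2r and Npy5r 0.

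Outside these 23 cells, 1 column held reads on a receptor gene. N45, labelled AC, had 329 reads on Npy2r, 62.5 CPM, among 5265115 reads and 6209 detected genes. Its Npy level was 281 CPM from 1477 reads, below all 10 AC cells compared. N45 was also the single column of 47 with reads on Sst, the gene of somatostatin, with 265. It had 1302 reads, or 247 CPM, on Lhx6, a transcription factor of interneurons from the medial ganglionic eminence. Lhx6 was unread in the 10 AC cells but read in 12 of the 13 CA3 cells, at 328 CPM, and Npy2r was unread in all 13. N45 had 854 reads on Nos1, the neuronal nitric oxide synthase, whose 162 CPM lay beside 133 CPM in the AC cells, 7 of which had reads. It had none on Lamp5, Reln or Ndnf, which were read in 10, 9 and 7 of the 10 AC cells. Gad1 stood at 10339 reads, while oligodendrocyte markers summed to 534 CPM and microglia markers to 714 CPM, and their part in the Npy2r reads was not tested. Npy2r was 1 of 112 genes read in N45 and in none of the 23 cells, 26 of which, Npy2r included, had at least 329 reads.

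The other columns with Npy reads had no receptor read. In AC these were N4X with 1052 CPM of Npy, N47 with 752, N48 with 478 and N51 with 1717, and in CA3 N36 with 453. N48 had 0 reads on Gad1 and 6 on Gad2. N51 had pyramidal cell markers at 2029.9 CPM beside 2040 reads on Gad1 and GABAergic markers at 1091 CPM. Both columns had Npy reads, as their label says, and few detected genes, 1814 in N48 and 1565 in N51. The 3 CA1 cells had Npy at 1356, 1435 and 2242 CPM, inside the range of CA3, and 0 reads on all receptors among 5034558. The order of the summed level was thus AC with 5576, CA1 with 1623 and CA3 with 1359 CPM. The CA1 cells overlapped with both regions, since N6 with 2242 CPM lay above 4 of the 10 AC cells compared, and N1 and N2X lay above N44 and N4.

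The other genes of the pathway were taken from lists by role. The genes of the related peptides, Pyy and Ppy, and the receptor genes Npy4r and Npy6r had no read in the 23 cells. The genes of the enzymes that turn the precursor into the amidated peptide had reads in both regions. Cpe, which trims the basic residues, was read in 23 of 23 cells with 1553 CPM in AC and 1632 in CA3, a difference in mean level of 0.05. Pam, which adds the amide, was read in 21 cells and differed by 0.27. Of the convertases, Pcsk2 had reads in 4 cells of AC against 11 of CA3, at mean levels of 2.88 ± 4.11 (SD, n = 10 cells) and 5.19 ± 3.45 (SD, n = 13 cells), a difference of -2.31 that was smaller than either SD. Pcsk1 was read in 1 cell of each region. Of the peptidases that cleave the released peptide, Dpp4 had 1 read in 1 AC cell, and Mme was read in 0 AC and 5 CA3 cells.

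On the effector side, reads in at least 10 of the 23 cells were found for 4 of 5 Gi/o alpha subunit genes, 2 of 4 GIRK genes, 2 of 2 calcium channel genes and 2 of 7 adenylyl cyclase genes. Over all 22800 gene symbols the share was 26.2%, and the adenylyl cyclases lay near it. The Gi/o alpha subunit Gnao1 was read in 23 of 23 cells with 184 CPM in AC and 221 CPM in CA3, and Gnai1 in 22, while Gnaz was read in 7. The mean level of Gnai3 was 6.64 ± 4.81 (SD, n = 10 cells) for AC against 1.85 ± 3.46 (SD, n = 13 cells) for CA3, or 4.78 higher in AC, which was smaller than the AC SD. Of the GIRK subunits, Kcnj3 was read in 15 cells, Kcnj6 in 10, Kcnj9 in 9 and Kcnj5 in none. The presynaptic calcium channel genes Cacna1a and Cacna1b were read in 18 and 13 cells. The adenylyl cyclase Adcy1 was read in 22 cells, at a mean level of 10.46 ± 1.47 (SD, n = 10 cells) for AC against 7.90 ± 2.80 (SD, n = 13 cells) for CA3, or 2.56 higher in AC, which was smaller than the CA3 SD. Adcy2 was read in 1 AC and 8 CA3 cells, at a mean level of 0.17 ± 0.53 (SD, n = 10 cells) for AC against 5.56 ± 4.69 (SD, n = 13 cells) for CA3. Its difference was -5.39. The AC SD says little here, since the AC cells were at 0 but for 1 with 3 reads. With reads in 9 of the 23 cells, Adcy2 also missed the limit of 10. Adcy5 was read in 9 cells and Adcy6 in 1. Adcy8 and Adcy9 were each read in 4 AC cells and 1 CA3 cell, with differences in mean level of 3.58 and 2.38, both smaller than the AC SDs of 4.92 and 4.04.

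Of the 28 pathway genes besides the members, 13 had reads in at least 10 of the 23 cells, beside 26.2% of all gene symbols. A mean level at least 1 higher in AC was found for 4 of these (Gnai3, Adcy1, Kcnj6 and Cacna1a), and at least 1 higher in CA3 for 4 (Pcsk2, Adcy3, Gnai1 and Gnai2), beside the 16.6% and 46.9% of all genes. Their median difference was -0.18, beside -0.84 over all genes. Relative to the all-gene median, an alternative added after the data were seen, 5 genes were at least 1 higher in AC and 2 in CA3, beside 29.3% and 29.9% of all genes. Pam then joined the genes higher in AC with 1.11, Pcsk2 and Adcy3 stayed higher in CA3 with -1.47 and -1.32, and Gnai1 and Gnai2 came to -0.58 and -0.24.

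**Figure D4:**
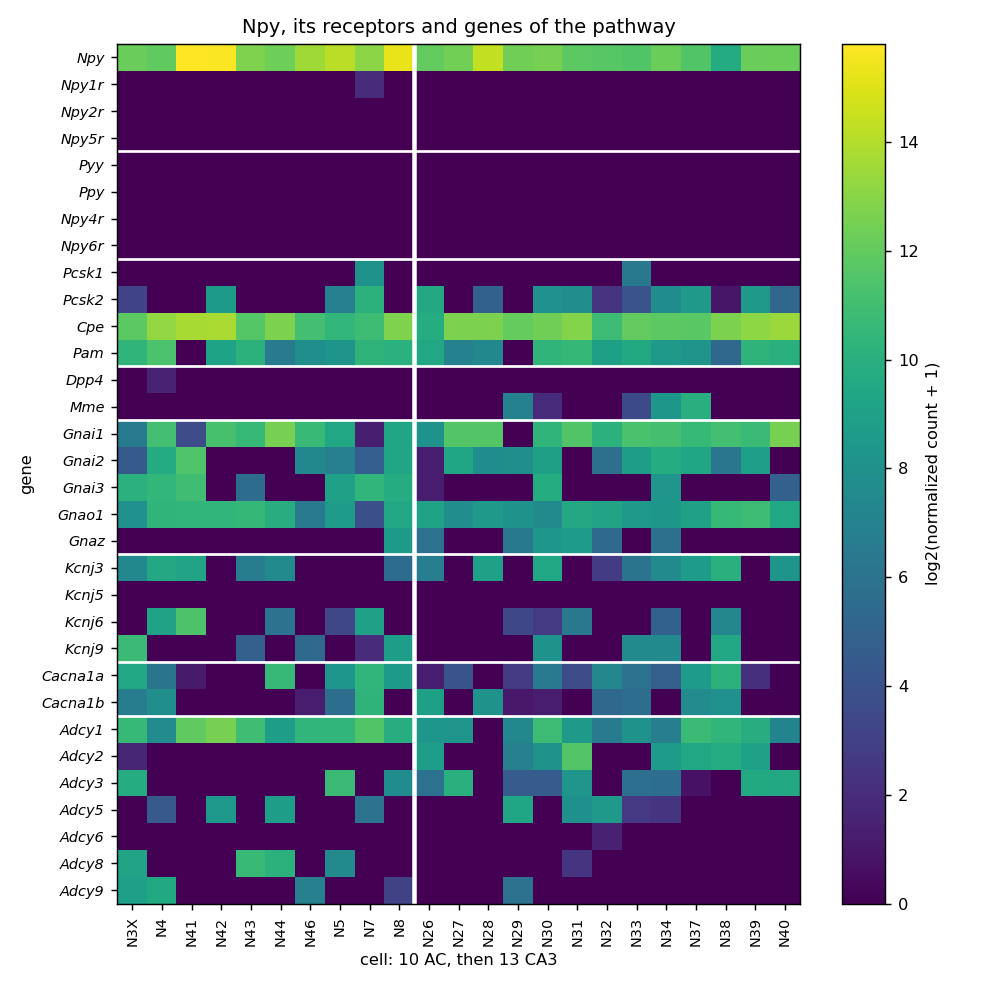
Level, log2(normalized count + 1), of Npy, its receptors and 28 pathway genes (rows, white lines between lists) in 10 AC and 13 CA3 cells (columns, left and right of the thick white line). Npy, Cpe and Gnao1 are read in all 23 cells, while the receptor rows are at 0 but for Npy1r at 1.99 in N7.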

How the data were processed

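The values are raw read counts per gene symbol and cell, deposited by the authors as a single table. The study's methods give Trimmomatic and Flexbar for trimming, STAR for alignment to GRCm38 and HTSeq for counting, while the submitters' processing notes name featureCounts. Symbols came from annotation version 86, with the mean taken where several identifiers shared a symbol. No normalization was applied. Libraries were made with Nextera XT, and the methods do not say which strand option was used. Gene models came from GENCODE vM21 of GRCm38, and all 4 members were found in it and in the RefSeq promoter table.

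The 23 cells compared had 1715012 to 7949918 reads. N4 and N4X had a chi-square per degree of freedom of 2.02, against at least 28.9 in the other 399 pairs of a region, so N4 alone was used, or their mean among all labelled cells. Counts were divided by size factors of scran 1.30.0 (pools of 10 and 20 cells, R 4.3.3), and levels are log2(normalized count + 1). CPM are counts per 1000000 reads on genes. A level of 0 is given with the limit set by 3 reads. A difference of at least 1 is spoken of as apart. No model was fitted and no test between regions made. Dixon's criterion alone was applied to cells within AC. Alternatives used edgeR 4.0.16 TMM factors, DESeq2 1.42.0 poscounts factors, library size, pseudocounts of 10 and 0.1, other sets of cells, each cell left out, and cells thinned to 1715000 reads. Python 3.11.15 with numpy 2.4.6, pandas 2.3.3 and scipy 1.17.1 did the rest, and the steps were tested on simulated data.

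Named genes are the 4 members, the genes of the lists, and the 5 genes with the highest rank correlation with a member read in at least 5 of the 23 cells, taken among genes read in at least 10. Npy alone met that. Dlx6os1 of the GABAergic list had no row of that symbol. A marker of the pyramidal list is not reported here. The members, the cells and the lists were chosen with earlier results of these data known, and the list of other Gi/o receptors after the counts were seen.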

Additional observations from a re-analysis of the deposited data

Results flagged for a closer look

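The AC cell N7 stood apart from the other AC cells with 3.48 Npy reads per Gad1 read, against at most 1.10 in the other 9, by Dixon's criterion on the gap to the nearest cell. Its Npy level of 2573 CPM lay within the AC range, while its 1668 Gad1 reads were the lowest count of the 23 cells. The same cell stood apart for its 2 reads on Npy1r, a count at which the criterion says little, since the other 9 cells had 0. Chance alone sets a cell apart in about 1 in 20 groups. In columns outside the comparison of AC with CA3, N45 of AC had 329 reads on Npy2r, where the NPY-negative cell had 0 among 291745 reads. That cell had no Gad1 or Gad2 read and 177000.5 CPM of oligodendrocyte markers, so it is no reference for an interneuron without NPY. The CA1 cells N1, N2X and N6 had Npy at 1356, 1435 and 2242 CPM, again with 0 reads in the NPY-negative cell, whose depth allows up to 10.3 CPM.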

How the results depend on the processing

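The higher Npy level in AC kept its direction under every scaling, pseudocount and set of cells that was run. Among these sets, all labelled cells (1.63) and the columns left by the study's filter (1.87) include columns without an Npy read. Among all labelled cells such columns were 5 of AC and 7 of CA3, and their part in the difference was not tested. The difference lay between 1.42 with TMM factors and 2.04 as the log2 ratio of summed CPM. With single cells left out it ran from 1.39 without N41 to 1.82 without N4, and without N8, N41 and N42, a set added after the data were seen, it was 0.81. The ratio of summed reads of 4.10 moved to 1.67 without these 3 cells, to 2.04 for the median cell, and to 2.89 over all labelled cells and over those of them with Npy reads, all added after the data were seen. It ran from 3.28 without N8 to 4.69 without N28. The median over all genes, -0.84 with scran factors, was -0.97 with TMM, -0.96 with DESeq2 and -0.94 with library size factors.

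The Npy2r difference of 0 became 0.40 over all labelled cells and 0.39 over the 19 AC and 20 CA3 columns left when the study's filter was run on the deposited columns, in both cases through N45. That filter did not give the number of AC cells the study describes. The Npy1r share in AC of 10% was 0 at a limit of 10 reads and without N7. Pathway genes at least 1 apart numbered 8, 7 with library size, 7 relative to the all-gene median and 13 without the filter on low counts, since more genes then enter. These were 13 of the 23 listed genes with a read in the 23 cells, beside 46.7% of all 13624 genes with a read there. By counting error alone, 0 reads limit a receptor to 0.0881 CPM in AC and 0.0614 CPM in CA3 for summed reads. Molecules that did not reach the library are not covered by this limit. No paired analysis was possible because the labels give cells no shared replicate numbers and no test between regions was made.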
